A study of Mus musculus with 2 samples.

Results

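To describe the inhibitory neurons of the hippocampus in mice with endothelial loss of *CDK5*, 9 genes of interneuron identity and GABA synthesis were followed in RNA of hippocampal tissue. The genes were taken by symbol from the 55573 rows of the deposited table, and each of the 9 symbols had exactly 1 row. They were *Gad1*, *Gad2* and *Slc32a1* for GABA synthesis and loading, *Pvalb*, *Calb2* and *Reln* as markers of interneuron subtypes, and *Lhx6*, *Dlx1* and *Sox6* as transcription factors. There were 2 libraries, both of C57BL/6 mice. The mutant library came from a *Cdh5-CreERT2;CDK5f/f* sample labelled as given tamoxifen, in which a Cre recombinase driven by the endothelial *Cdh5* promoter removes the floxed *CDK5* allele. The control library came from a *CDK5f/f* sample labelled untreated, which carries the same floxed allele without Cre. Thus, genotype and tamoxifen differed together. Neither the age at sampling of these mice nor their number per library was stated. The labels name the hippocampus, and the design text of the series names its CA1 region.

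GABAergic interneurons are a minority of hippocampal neurons and restrain the pyramidal and granule cells. Glutamate decarboxylase, which *Gad1* (GAD67) and *Gad2* (GAD65) encode, makes GABA from glutamate, and the vesicular transporter VGAT, the product of *Slc32a1*, loads GABA into synaptic vesicles. Interneurons are born in the ganglionic eminences of the embryo, where the *Dlx* genes act early and *Lhx6* and *Sox6* act in cells of the medial eminence that become parvalbumin and somatostatin cells. Subtypes of the adult are told apart by calcium-binding proteins such as parvalbumin and calretinin, by peptides such as somatostatin, and by the glycoprotein reelin.

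With 1 library per genotype, no difference has a replicate check, and no p-value is given. The mutant library held 18900847 counts and the control library 19451827 counts assigned to genes. *Cdk5*, measured here in tissue that contains all cell types, had 1257 counts in the mutant library and 1261 in the control library, with a ratio of 1.03, so it does not check the deletion in endothelial cells. All 7 excitatory hippocampal neuron markers and all 8 pan-neuronal genes fixed for the purpose were measured. Choroid plexus markers were 13 of 13 past 1.5-fold higher, with 118377 summed counts in the mutant library and 8516 in the control library. *Xist*, expressed from the inactive X chromosome of females, had 34 counts in the mutant library and 15070 in the control library, and the Y-linked *Eif2s3y* had 679 and 2 counts. Sex, like tamoxifen and the share of choroid plexus, cannot be told apart from genotype.

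All 9 genes were expressed in both libraries, and their order was nearly the same. FPKM, the count per kilobase of exonic length and per 1000000 counts of the library, was used to compare levels between genes. *Gad1* was highest, at an FPKM of 42.7 in the mutant library and 42.5 in the control library, followed by *Pvalb* at 30.1 and 36.7. *Sox6* was lowest, at an FPKM of 1.26 in the mutant library and 1.37 in the control library, so the range over the 9 genes was 33.9-fold and 31.0-fold. Between them, *Slc32a1* had an FPKM of 27.5 in the mutant library and 23.5 in the control library, and *Gad2* had 26.4 and 24.2. *Calb2* had an FPKM of 18.9 in the mutant library and 18.1 in the control library, *Dlx1* had 8.70 and 9.37, *Lhx6* had 4.28 and 4.24, and *Reln* had 3.92 and 2.82. Genes of synthesis, loading and calcium buffering thus lay above the transcription factors in both libraries, and *Reln* lay among these factors. In the mutant library, the 95% counting intervals of *Pvalb* (27.8 to 32.7), *Slc32a1* (26.1 to 29.0) and *Gad2* (25.5 to 27.4) overlapped, so these neighbours in the order were not distinct. The control library separated *Pvalb* from that pair, and the intervals of *Gad2* (23.3 to 25.1) and *Slc32a1* (22.3 to 24.9) overlapped. *Lhx6* (3.87 to 4.73) and *Reln* (3.74 to 4.11) overlapped in the mutant library, whereas in the control library *Reln* (2.67 to 2.98) lay below *Lhx6* (3.83 to 4.68). These intervals are exact Poisson intervals of the counts and cover counting error only, not the spread between mice.

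**Figure D1:**
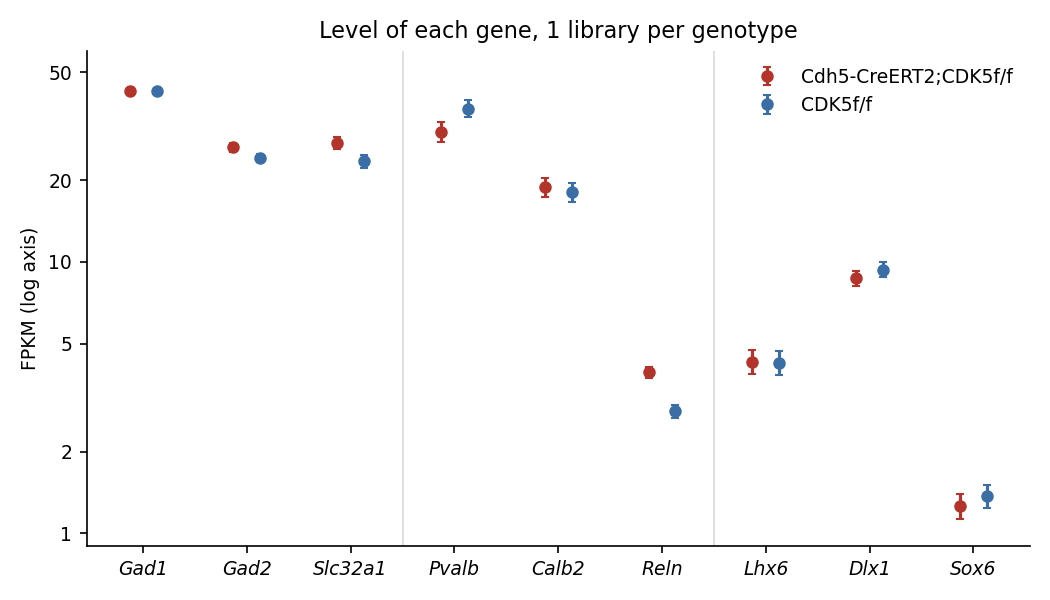
FPKM (log axis) of the 9 genes in the mutant library (red, left of each pair) and the control library (blue, right), with exact 95% Poisson intervals of counting error; thin vertical lines part the 3 groups of genes. *Gad1* lies at 42.7 and 42.5, *Pvalb* is lower in the mutant library (30.1 against 36.7) and *Reln* higher (3.92 against 2.82).

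None of the 9 genes was past 1.5-fold between the libraries on the scale of log2(FPKM + 1). Among the 14778 genes that reached an FPKM of 1 in one or both libraries, all 9 genes included, 3.65% were past 1.5-fold higher and 3.16% past 1.5-fold lower. Counts divided by the library total gave a second ratio with an exact 95% interval, which lay above 1 for 3 of the 9 genes (*Gad2*, *Slc32a1* and *Reln*), below 1 for *Pvalb*, and included 1 for the other 5. Over all 14778 genes, it lay above 1 for 19.7% and below 1 for 17.9%. For the 7848 genes whose summed counts lay in the range of the 9 genes, from 748 to 12482, these shares were 21.7% and 19.8%. The 9 genes had shares of 33.3% above and 11.1% below, where 1 gene is 11.1%, so they stood about 1 gene from the background on either side. For the 9 genes the median log2 ratio was 0.01, against 0.00 (0.0019) over all genes measured.

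**Figure D2:**
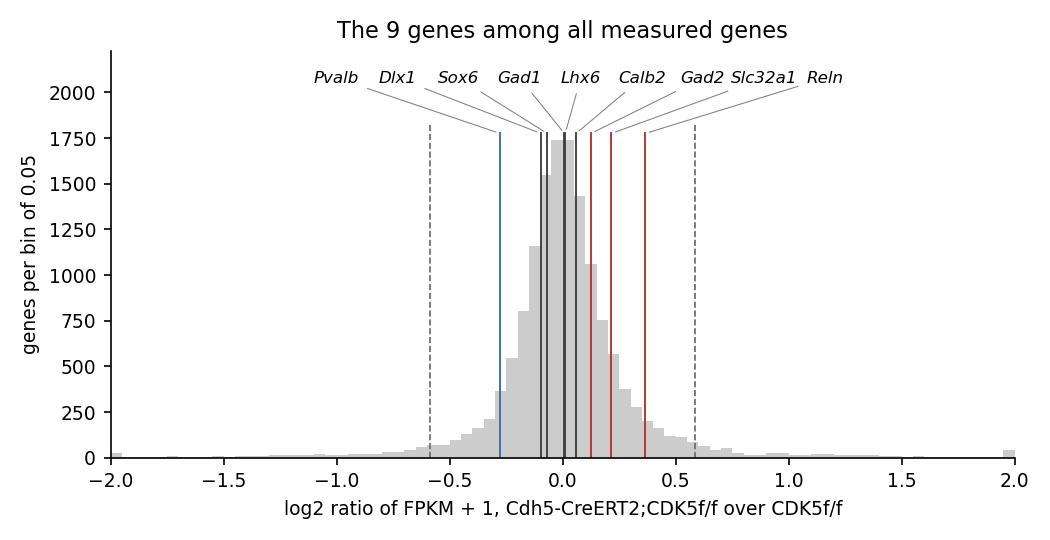
Histogram of log2 ratios of FPKM + 1, mutant over control, for 14778 genes in bins of 0.05 (67 genes beyond a size of 2 are stacked in the end bins), with a line for each of the 9 genes: red where the counting interval of the count ratio lay above 1, blue where below 1, dark grey where it included 1. Dashed lines mark 1.5-fold, and all 9 lines lie between them, from -0.28 for *Pvalb* to 0.37 for *Reln*.

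The genes of GABA synthesis and loading had ratios between 1.01 and 1.17. *Gad1* had 6168 counts in the mutant library and 6314 in the control library, a ratio of 1.01 (95% counting interval 0.971 to 1.04). The interval included 1, but the call and the direction depended on the scaling: scaled to pan-neuronal genes the ratio was 1.04 (interval 1.01 to 1.08), and with upper-quartile scaling it was 0.989 (interval 0.955 to 1.02). *Gad2* had 2936 counts in the mutant library and 2762 in the control library, a ratio of 1.09 (interval 1.04 to 1.15). *Slc32a1* had 1454 counts in the mutant library and 1281 in the control library, a ratio of 1.17 (interval 1.08 to 1.26). Both ratios were above 1 by more than counting error, although 24.7% of all genes measured had a larger log2 ratio than *Gad2* and 15.0% a larger one than *Slc32a1*.

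To compare these genes without a scaling between libraries, each was set against *Gad1* within its library. *Gad2* reached 0.619 of the *Gad1* FPKM in the mutant library and 0.569 in the control library, and *Slc32a1* reached 0.644 and 0.554. The exact conditional interval of the change relative to *Gad1* was 1.02 to 1.16 for *Gad2* and 1.07 to 1.26 for *Slc32a1*. Both synthesis and loading genes other than *Gad1* were therefore slightly higher per *Gad1* transcript in the mutant library. In tissue RNA, fewer or more cells of a type cannot be told apart from less or more RNA per cell.

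Other GABAergic cells near the hippocampus express the same 3 genes, above all the projection neurons of the striatum. Of 10 striatal projection neuron markers, 7 were measured. Of these, 2 were past 1.5-fold higher, beside 3.65% of all genes, and 4 had intervals above 1, beside 19.7%. The summed FPKM was 60.0 in the mutant library and 46.0 in the control library. *Drd2*, a dopamine receptor of striatal neurons and also of hilar mossy cells, had 71 counts in the mutant library and 23 in the control library. No marker of this list was at 0 in either library, and the summed counts of the list, 4397 in the mutant library and 3774 in the control library, had a ratio of 1.20 (interval 1.15 to 1.25). Most of this gap came from *Ppp1r1b*, which encodes the phosphatase inhibitor DARPP-32, with 1649 counts in the mutant library and 1176 in the control library. *Pde10a*, a phosphodiesterase gene (ratio 0.938), *Rgs9*, a regulator of G protein signalling (0.933), and *Penk*, the enkephalin precursor (1.01), had intervals that included 1. The part of such cells in the values of *Gad2* and *Slc32a1* was not tested.

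Uptake, breakdown and precursor supply of GABA showed no common direction. Of 9 genes, 8 were measured and none was past 1.5-fold. The interval lay above 1 for 3 and below 1 for 2, beside 19.7% and 17.9% of all genes. The median log2 ratio was 0.04. *Aldh5a1*, which encodes succinic semialdehyde dehydrogenase, the last enzyme of GABA breakdown, had 1901 counts in the mutant library and 2471 in the control library, a ratio of 0.792 (interval 0.745 to 0.841). *Glul*, the glutamine synthetase of astrocytes, had 26853 counts in the mutant library and 23219 in the control library, a ratio of 1.19. *Slc6a13*, the GABA transporter GAT2 of meninges and choroid plexus, had 182 counts in the mutant library and 129 in the control library (ratio 1.45, interval 1.15 to 1.83). The choroid plexus markers moved in the same direction, and their part in *Slc6a13* was not tested.

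The subtype markers diverged, and *Reln* and *Pvalb* stood at the ends of the 9 genes. *Reln* encodes reelin, a large secreted glycoprotein that interneurons of the outer layers and Cajal-Retzius cells release. It spans 21884454 to 22344702 of chromosome 5 (GRCm38). *Reln* had 1757 counts in the mutant library and 1300 in the control library. The ratio was 1.39 (interval 1.29 to 1.49), the highest of the 9 genes, and 7.75% of all genes measured had a larger log2 ratio. *Pvalb* encodes parvalbumin, the calcium buffer of fast-spiking basket and axo-axonic cells. It spans 78191114 to 78206400 of chromosome 15. *Pvalb* had 593 counts in the mutant library and 744 in the control library. The ratio was 0.820 (interval 0.735 to 0.915), the lowest of the 9 genes, and 9.09% of all genes measured had a smaller log2 ratio. *Calb2*, which encodes the calcium buffer calretinin, had 621 counts in the mutant library and 612 in the control library, a ratio of 1.04 (interval 0.932 to 1.17), and no difference was detectable at this depth. Relative to *Gad1* in the same library, the change was 1.38 for *Reln* (interval 1.28 to 1.5) and 0.816 for *Pvalb* (interval 0.727 to 0.915).

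**Figure D3:**
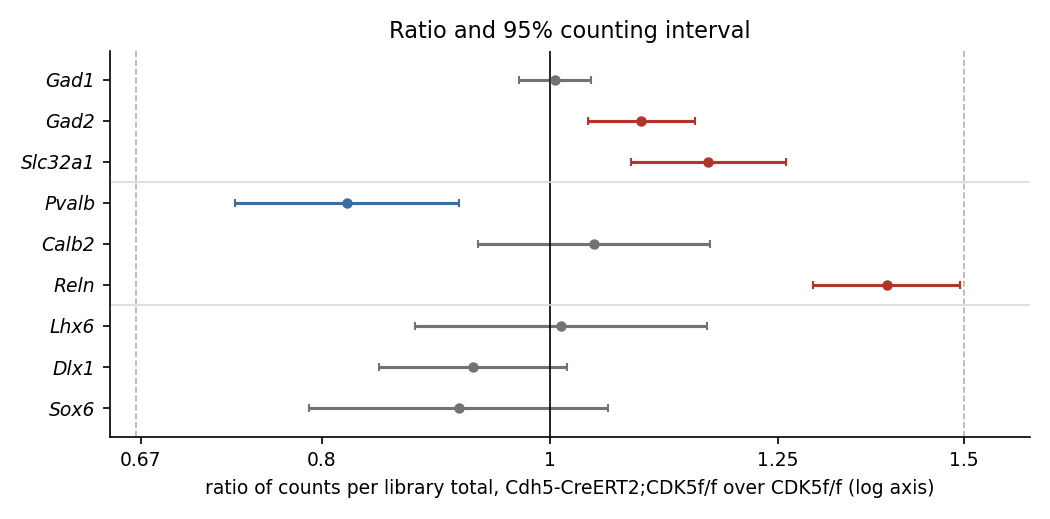
Ratio of counts per library total, mutant over control (log axis), with exact 95% counting intervals for the 9 genes, coloured red above 1, blue below 1 and grey where 1 is included. Dashed lines mark a 1.5-fold ratio of counts. *Slc32a1* (1.17), *Gad2* (1.09) and *Reln* (1.39) lie right of 1, *Pvalb* (0.820) lies left of it, and the 3 transcription factors include it.

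The sequence before the starts of *Reln* and *Pvalb* is shown with that of *Gad1*, the member nearest to the middle of all genes, because these are the members at the ends and the middle of the range. The sequences are the 250 bases before the RefSeq start of each gene on GRCm38.p6, and the choice was made after the values were seen. They lie at chr5:22344706-22344955 (minus strand) for *Reln*, chr15:78206401-78206650 (minus strand) for the first of 2 *Pvalb* starts, and chr2:70561879-70562128 (plus strand) for *Gad1*, inside the gene as the table draws it. Capitals mark GC boxes, the letters GGGCGG on either strand, which transcription factors of the Sp1 family can bind.
*Reln*: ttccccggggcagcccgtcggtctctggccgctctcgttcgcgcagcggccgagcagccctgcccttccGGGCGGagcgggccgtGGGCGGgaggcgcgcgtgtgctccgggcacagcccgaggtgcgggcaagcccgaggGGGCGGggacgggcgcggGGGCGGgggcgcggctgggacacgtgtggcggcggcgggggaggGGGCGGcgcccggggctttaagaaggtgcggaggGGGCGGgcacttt
*Pvalb*: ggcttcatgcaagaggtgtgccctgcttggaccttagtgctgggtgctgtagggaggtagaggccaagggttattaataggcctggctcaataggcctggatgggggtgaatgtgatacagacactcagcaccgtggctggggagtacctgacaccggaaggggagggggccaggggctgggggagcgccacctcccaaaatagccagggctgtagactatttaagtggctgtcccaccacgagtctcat
*Gad1*: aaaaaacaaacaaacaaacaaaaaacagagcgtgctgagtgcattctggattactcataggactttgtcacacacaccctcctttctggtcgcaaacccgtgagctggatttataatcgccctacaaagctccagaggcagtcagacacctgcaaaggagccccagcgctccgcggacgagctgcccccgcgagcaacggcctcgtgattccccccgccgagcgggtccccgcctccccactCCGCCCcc
The *Reln* window had 6 GC boxes and 37 CpG dinucleotides, *Pvalb* had no GC box and 4 CpG, and *Gad1* had 1 GC box and 17 CpG. The window of the other *Pvalb* start, not printed, had 23 CpG and no GC box. Over 32851 windows of the same length, the median was 6 CpG, and 32.7% held at least 1 GC box. RefSeq windows were matched for 8 of the 9 genes, of which 3 held a GC box in their first window and 1 (*Gad1*) held the letters of the TATA box, TATAAA, which were searched on both strands and found in 12.4% of all windows. In *Gad1* they lie on the opposite strand and read TTTATA in the sequence as printed. The letters TAATTA, a core bound by many homeodomain proteins such as those of the *Dlx* and *Lhx* families, were in none of the 8 first windows and in 4.84% of all windows. A match of letters is a description of the window and not a site in use.

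Genes of like length and genes nearby were set beside *Reln* and *Pvalb*. *Reln* has the longest exonic length of the 9 genes, 23738 bases, and the 1282 genes measured with at least 10000 bases had a median log2 ratio of -0.01. Of these long genes, 19.0% had intervals above 1 and 26.9% below 1, beside 19.7% and 17.9% of all genes. *Pvalb* has the shortest, 1041 bases, and the 2611 genes under 1500 bases had a median of 0.01. Of 16 genes measured within 1 Mb of *Reln*, none was past 1.5-fold higher and 1 was past it lower, 1 interval lay above 1 and 3 below 1, and the median log2 ratio was -0.09. The floxed *Cdk5* gene, which both genotypes carry, lies 2073.5 kb from the start of *Reln*, a gene of the minus strand. A link of this position to the *Reln* ratio was not tested. Of 33 genes measured within 1 Mb of *Pvalb*, 3 were past 1.5-fold higher and 2 lower, with a median of 0.03.

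Other genes of the fast-spiking phenotype of parvalbumin cells lay on both sides of 1. Of 12 such genes, 11 were measured, 6 had ratios below 1 and 5 above 1, and none was past 1.5-fold. The counting interval lay above 1 for *Syt2*, the synaptotagmin of fast inhibitory terminals, with 1181 counts in the mutant library and 861 in the control library (ratio 1.41, interval 1.29 to 1.54). It lay below 1 for *Hapln1*, a link protein of perineuronal nets, with 350 and 432 counts in the mutant and control libraries (ratio 0.834, interval 0.722 to 0.962). For the other 9 it included 1, among them *Kcns3*, a potassium channel subunit (ratio 0.961, interval 0.787 to 1.17), and *Cox6a2*, a subunit of cytochrome c oxidase (1.33, interval 0.909 to 1.94). Below the FPKM minimum, *Acan*, also of this list, had 131 counts in the mutant library and 93 in the control library (ratio 1.45, interval 1.10 to 1.91). The list had a median log2 ratio of -0.02, and its summed counts had a ratio of 1.00 (interval 0.986 to 1.02). *Cplx1* held the largest share of these counts, with 11032 in the mutant library and 11631 in the control library.

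For reelin, the receptors and the adaptor were near 1. Of 8 genes of the pathway, all were measured and none was past 1.5-fold. The interval lay above 1 for 2 and below 1 for 2, beside 19.7% and 17.9% of all genes. The median log2 ratio was 0.06. *Dab1*, the adaptor that reelin receptors phosphorylate through Src family kinases, had 2181 counts in the mutant library and 2397 in the control library (ratio 0.936, interval 0.883 to 0.993). *Fyn*, one of these kinases, had a ratio of 0.891 (interval 0.842 to 0.943), whereas the adaptor *Crkl* had 1.12 (interval 1.04 to 1.21). *Itga3*, an integrin subunit that has been described to bind reelin, had 598 counts in the mutant library and 468 in the control library, a ratio of 1.31 (interval 1.16 to 1.49).

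Cajal-Retzius cells, which make reelin at the hippocampal fissure, share *Reln* and *Calb2* with interneurons. Of 5 further markers of these cells, 2 reached the FPKM minimum. *Trp73*, a p53 family gene that ependymal and choroid plexus cells also express, had 207 counts in the mutant library and 66 in the control library (log2 ratio 0.89). The choroid plexus markers moved in the same direction, and their part in *Trp73* was not tested. *Ndnf*, shared with neurogliaform cells, had 331 and 337 counts. Below the minimum, *Lhx5* had 23 counts in the mutant library and 8 in the control library, *Lhx1* had 14 and 9, and *Nhlh2* had 24 and 49. The markers thus did not move one way, none was at 0, and the summed FPKM of the list was 4.57 in the mutant library and 3.05 in the control library. Most of this gap came from *Trp73*, with an FPKM of 1.98 in the mutant library and 0.61 in the control library. The part of Cajal-Retzius cells in the *Reln* value was not tested.

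Of 2 more cell types that hold calretinin in the mouse, mossy cells of the hilus and immature granule neurons, the markers are given beside *Calb2*. Of 5 mossy cell markers, 3 were measured, *Drd2* was past 1.5-fold higher (3.18-fold by counts), and the counting intervals of the other measured markers included 1. *Drd2* also stands in the striatal list. *Calcrl* had 95 counts in the mutant library and 75 in the control library (ratio 1.30, interval 0.953 to 1.79), and *Nmb* had 100 and 107 (ratio 0.962). Below the FPKM minimum, *Csf2rb2* had 69 counts in the mutant library and 91 in the control library (ratio 0.780). The summed FPKM of the list was 10.7 in the mutant library and 9.85 in the control library. Of 5 immature granule neuron markers, 3 were measured and all had ratios below 1, with *Neurod1* at 358 counts in the mutant library and 439 in the control library (ratio 0.839, interval 0.728 to 0.967). Their summed FPKM was 10.7 in the mutant library and 12.4 in the control library.

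The 3 transcription factors did not differ beyond counting error. *Lhx6*, which specifies interneurons of the medial ganglionic eminence, had 389 counts in the mutant library and 396 in the control library, a ratio of 1.01 (interval 0.877 to 1.17). *Dlx1*, which maintains dendrite-targeting interneurons in the adult, had 887 counts in the mutant library and 984 in the control library, a ratio of 0.928 (interval 0.846 to 1.02). *Sox6*, which acts after *Lhx6* in the same cells, had 352 counts in the mutant library and 396 in the control library, a ratio of 0.915 (interval 0.790 to 1.06). All 3 intervals included 1, and the lower bound for *Sox6* was the farthest from it, so small differences were not detectable at this depth. Oligodendrocyte precursors also express *Sox6*. Of 7 markers of these cells, 6 had intervals that included 1, and the summed FPKM was 105 in the mutant library and 110 in the control library. Ratios were below 1 for 6 of the 7, and the summed counts had a ratio of 0.956 (interval 0.924 to 0.990). The part of these cells in the *Sox6* value was not tested.

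Genomic position links some of these genes. Of the 9 genes, 5 lie on chromosome 2 of GRCm38, which are *Gad2* (22622205 to 22693874), *Lhx6* (36081953 to 36105408), *Gad1* (70553072 to 70602014), *Dlx1* (71528113 to 71533981) and *Slc32a1* (158610767 to 158615748). *Calb2* lies on chromosome 8 (110137502 to 110168210) and *Sox6* on chromosome 7 (115470872 to 116038796). Along chromosome 2, *Dlx1* begins 926.1 kb after the end of *Gad1*. Genes of the table overlap 7 of the 9, and 6 of the 15 overlapping genes had any count. Since no source used here says whether reads were counted by strand, values of antisense partners are uncertain. *Dlx1as*, antisense to *Dlx1*, had 118 counts in the mutant library and 117 in the control library. The other overlapping genes had at most 7 counts in either library, including *Gad1os* with 1 and 7.

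Of 15 other transcription factors of the interneuron lineage, 12 were measured and 9 of these had ratios below 1. The interval lay below 1 for 3, beside 17.9% of all genes, and above 1 for 1, and none was past 1.5-fold. The median log2 ratio was -0.09, whereas the summed counts, 6102 in the mutant library and 5996 in the control library, had a ratio above 1 (1.05, interval 1.01 to 1.09). *Satb1*, a chromatin organiser of medial eminence interneurons that other neurons express too, had 2084 counts in the mutant library and 1645 in the control library (ratio 1.30, interval 1.22 to 1.39). The count gap of *Satb1* was larger than that of the whole list, so the sum was above 1 through this gene. *Dlx2*, the neighbour of *Dlx1*, had 70 counts in the mutant library and 101 in the control library (ratio 0.713, interval 0.518 to 0.977). *Dlx6* had 46 counts in the mutant library and 83 in the control library (ratio 0.570, interval 0.389 to 0.827), and *Sp9*, a zinc finger factor, had 154 and 196 (ratio 0.809, interval 0.650 to 1.00). On the FPKM + 1 scale the log2 ratio of *Dlx6* was -0.47, within 1.5-fold, because an FPKM near 1 is damped by the pseudocount of 1. Below the FPKM minimum, *Sp8* had 25 counts in the mutant library and 59 in the control library (ratio 0.436, interval 0.262 to 0.707). *Nkx2-1*, also below it, had 12 and 10 counts, with an interval that included 1. *Lhx8*, a factor of cholinergic neurons of the basal forebrain, had 0 counts in both libraries, which allows up to 3 counts in each.

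The other subtype markers had ratios on both sides of 1, more often above it (11 genes) than below it (7 genes). Of 20 genes, 18 were measured and none was past 1.5-fold, and 7 had intervals above 1 and 3 below 1, beside 19.7% and 17.9% of all genes. The median log2 ratio was 0.09, whereas the summed counts, 23562 in the mutant library and 24625 in the control library, had a ratio of 0.985 (interval 0.967 to 1.00). Most of the gap in these counts came from *Cck*, which pyramidal neurons also express. *Sst*, the peptide somatostatin, had 3584 counts in the mutant library and 3455 in the control library (ratio 1.07, interval 1.02 to 1.12). *Cort*, cortistatin, a peptide related to somatostatin, had 95 counts in the mutant library and 64 in the control library (ratio 1.53, interval 1.10 to 2.13). *Crhbp*, a binding protein of corticotropin-releasing hormone that somatostatin cells express, had 562 and 438 counts in the mutant and control libraries (ratio 1.32, interval 1.16 to 1.5). The peptide genes *Npy*, with 620 counts in the mutant library and 596 in the control library, and *Vip*, with 381 and 345, had intervals that included 1.

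*Htr3a*, the serotonin receptor subunit of interneurons from the caudal ganglionic eminence, had 285 counts in the mutant library and 184 in the control library. Its ratio of counts was 1.59 (interval 1.32 to 1.93), and its log2 ratio on the FPKM + 1 scale was 0.57, just inside 1.5-fold. *Lamp5*, a marker of neurogliaform cells that pyramidal neurons also express, had 865 counts in the mutant library and 1232 in the control library, a ratio of 0.723 (interval 0.662 to 0.789). *Cck*, a peptide of basket cells and of pyramidal neurons, had 8156 counts in the mutant library and 9142 in the control library, a ratio of 0.918 (interval 0.891 to 0.946). Of 7 excitatory hippocampal neuron markers, 5 had ratios below 1 and 2 above 1. The interval lay below 1 for 4, beside 17.9% of all genes, among them *Prox1* (ratio 0.783, interval 0.732 to 0.836) and *Neurod2* (ratio 0.820, interval 0.780 to 0.862). It included 1 for the other 3, which were *Neurod6*, *Tbr1* and *Emx1* with ratios of 0.964, 1.06 and 1.13. The list had summed FPKM of 941 in the mutant library and 1031 in the control library. Their part in *Lamp5* and *Cck* was not tested.

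**Figure D4:**
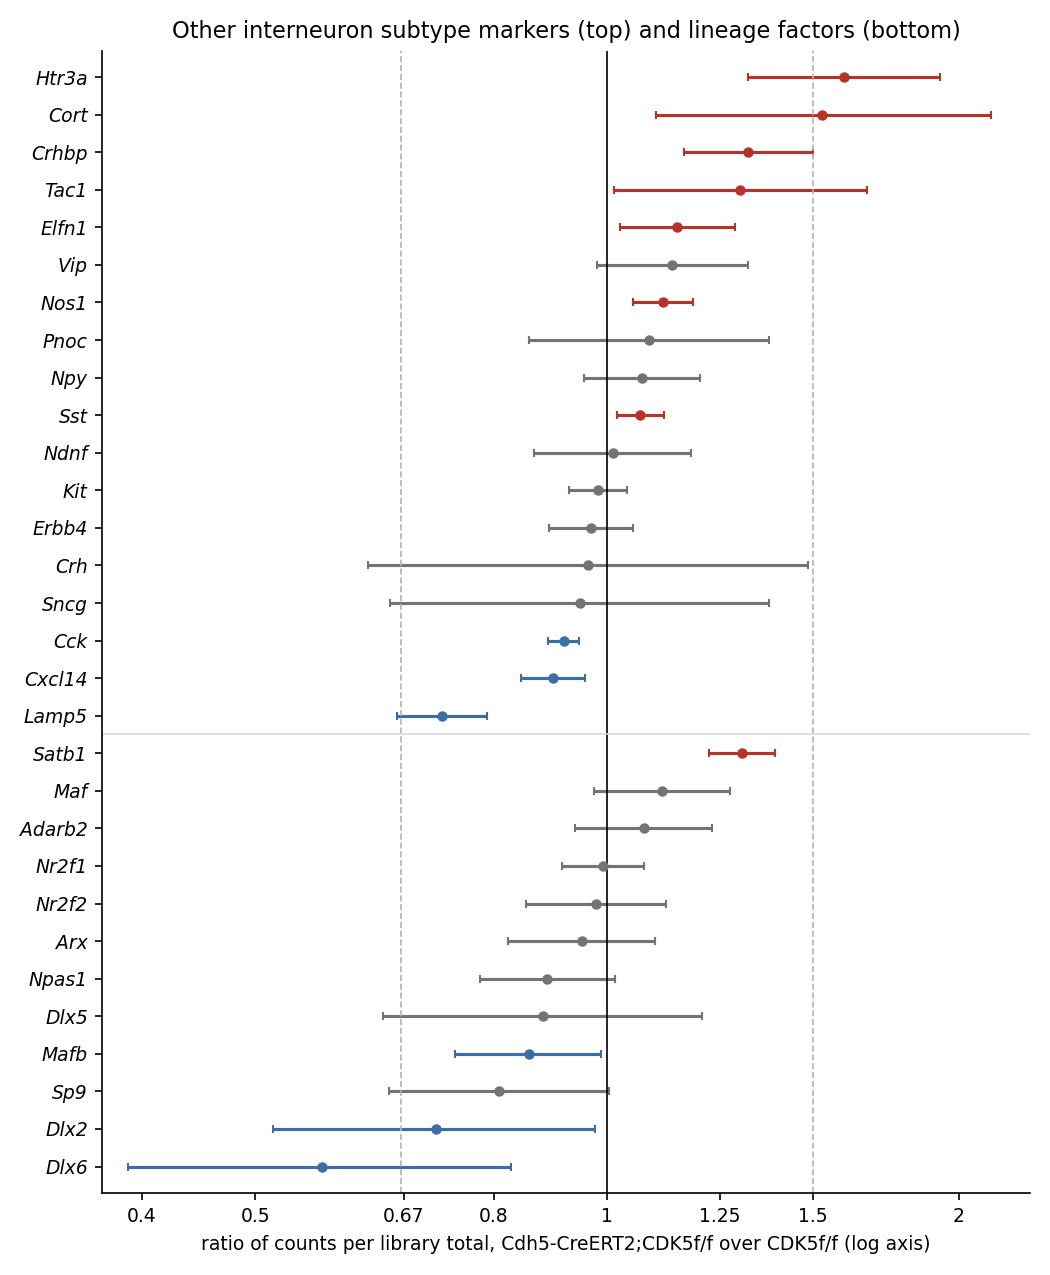
Ratio of counts per library total, mutant over control (log axis), with exact 95% counting intervals for 18 other subtype markers (above the line) and 12 other lineage transcription factors (below it), each sorted by ratio; red lies above 1, blue below 1, and grey includes 1. Dashed lines mark a 1.5-fold ratio of counts: *Htr3a* (1.59) and *Cort* (1.53) lie past it, and *Dlx6* (0.570) lies past it on the other side, all within 1.5-fold once 1 is added to the FPKM.

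A further list came from the table itself. The deposited table annotates 95 genes to Gene Ontology terms that name GABA or gamma-aminobutyric acid, among them *Gad1*, *Slc32a1*, *Lhx6* and *Dlx1*, and 56 were measured. The interval lay above 1 for 13 and below 1 for 15 of these 56, beside 19.7% and 17.9% of all genes. It included 1 for 28, and the median log2 ratio was -0.005. The 1 gene past 1.5-fold was *Htr6*, a serotonin receptor, with 92 counts in the mutant library and 179 in the control library (log2 ratio -0.68). *Slc12a2*, the chloride importer NKCC1, which sets the direction of GABA currents in young neurons and is abundant in choroid plexus, had 1961 counts in the mutant library and 1460 in the control library (ratio 1.38, interval 1.29 to 1.48). *Gabra2*, a subunit of the GABA-A receptor, had 2212 counts in the mutant library and 3452 in the control library, a ratio of 0.660 (interval 0.625 to 0.696), and its log2 ratio on the FPKM + 1 scale was -0.57, inside 1.5-fold. These 3 genes were named after their values were seen.

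**Figure D5:**
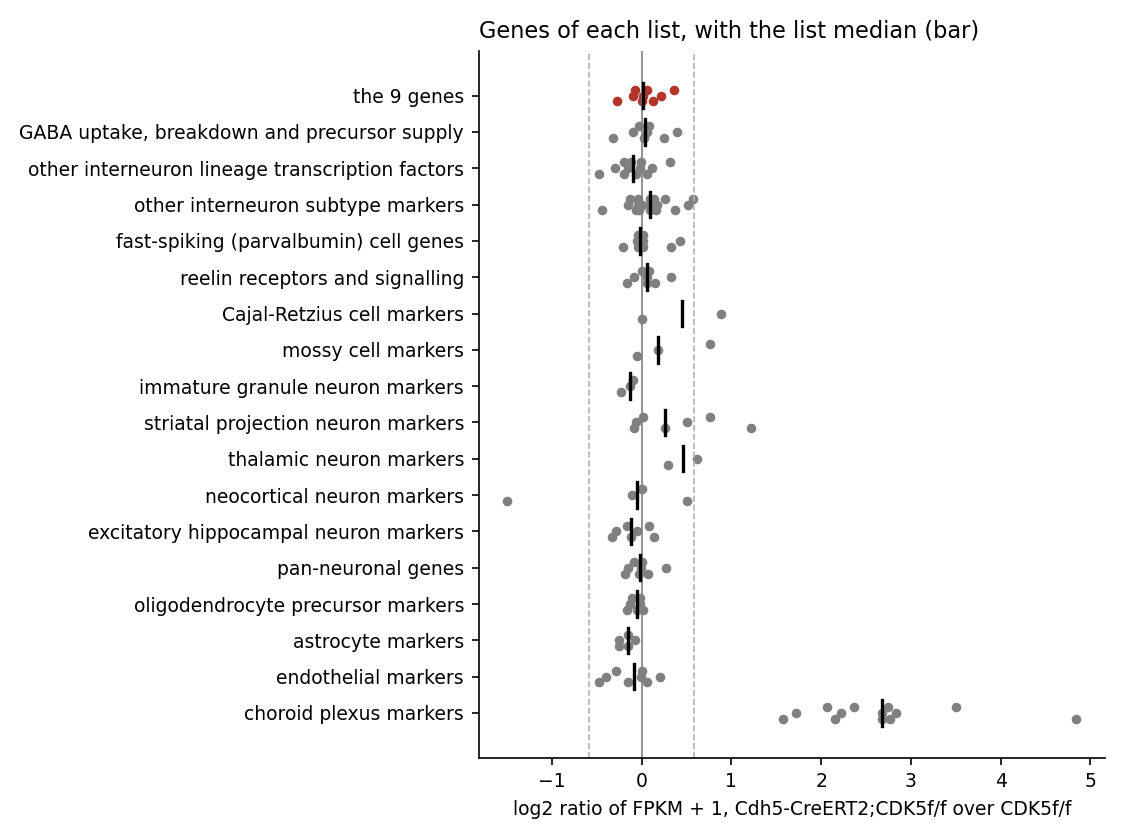
Log2 ratios of FPKM + 1, mutant over control, for each measured gene (points) of the 9 genes (red) and of the other lists (grey), with the median of each list as a bar and dashed lines at 1.5-fold. The medians of the interneuron lists lie between -0.09 and 0.09, while all 13 choroid plexus markers lie past 1.5-fold higher, with a median of 2.68.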

How the data were processed

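RNA of 1 *Cdh5-CreERT2;CDK5f/f* and 1 *CDK5f/f* hippocampal sample was analysed. The authors deposited raw counts per gene, exonic gene lengths, and FPKM, which equals the count divided by length in kilobases and by counts of the library in units of 1000000, to within 0.0051 FPKM plus 0.1%, in all 55573 rows. Per the submitters' notes, DESeq2, HTSeq 0.6.1, HISAT2 2.0.1 and cutadapt 1.9.1 were used, with genome build mm9 named and no roles stated. The coordinates of the table are those of GRCm38 (GENCODE M21) for all 9 genes. Strand use and the treatment of multiply mapped reads are not given in the sources used here. Columns were matched to samples by the label in their names.

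Genes that reached an FPKM of 1 in one or both libraries were measured by log2((mutant FPKM + 1)/(control FPKM + 1)). Ratios of counts per library total carry exact conditional (Clopper-Pearson) 95% intervals, single counts exact Poisson intervals, and changes relative to *Gad1* exact conditional odds ratio intervals. All cover counting error only. No test between genotypes was possible. The steps were tested on simulated data. The software was scipy 1.17.1, numpy 2.4.6, matplotlib 3.10.9 and pandas 2.3.3 under Python 3.11.15.

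The 9 genes and the gene lists were chosen with earlier results of these data known. Named are all 9 genes, *Cdk5*, up to 4 measured genes with at least 50 counts and the largest log2 ratios in each of 5 lists of the pathway, up to 2 in each list of another cell type, and *Sst*, *Npy*, *Vip* and *Cck*. Some genes of these lists are not reported here by name. Any further gene in the text was picked with its value known.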

Additional observations from a re-analysis of the deposited data

How the results depend on the processing

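Under 9 alternatives (pseudocount, FPKM minimum, 4 other scalings, overlapping genes added, a count minimum), no gene of the 9 was past 1.5-fold. The ratio ranged from 1.37 to 1.44 for *Reln*, 0.807 to 0.852 for *Pvalb*, 1.08 to 1.14 for *Gad2* and 1.15 to 1.21 for *Slc32a1*, and these 4 kept their intervals on the same side of 1 wherever they were measured. The pseudocount, the FPKM minimum and the count minimum cannot change a ratio of counts or its interval. Only the 4 other scalings and the added overlapping genes could do so. *Gad1* (0.989 to 1.04) and *Lhx6* (0.995 to 1.05) lay on either side of 1 with the scaling. When libraries were scaled to pan-neuronal genes, *Gad1* had a ratio of 1.04 (interval 1.01 to 1.08), and 1 other subtype marker (*Htr3a*) was past 1.5-fold. With a pseudocount of 0.1, 2 subtype markers (*Htr3a*, *Cort*) and 1 lineage factor (*Dlx6*) were past it. An FPKM minimum of 5 leaves out *Reln*, *Lhx6* and *Sox6*. No paired analysis was possible because each genotype has 1 library, and for the same reason no library could be left out.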

Other observations

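Among markers of neurons in regions next to the hippocampus, the thalamic ones had ratios above 1, and the neocortical ones lay on both sides of 1. Of 5 thalamic neuron markers, 2 were measured, and both had counting intervals above 1. *Slc17a6*, the vesicular glutamate transporter VGLUT2 of thalamic and other subcortical neurons, had 527 counts in the mutant library and 316 in the control library, a ratio of 1.72 (interval 1.49 to 1.98), and *Prkcd*, a protein kinase C gene, had 876 and 713. Of 4 neocortical neuron markers, *Cux2*, an upper-layer factor that interneurons express too, had 984 counts in the mutant library and 653 in the control library (ratio 1.55, interval 1.40 to 1.71), whereas *Rspo1*, a secreted activator of Wnt signalling, had 13 and 106. *Fezf2* and *Rorb*, the other neocortical markers, had intervals that included 1.

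Astrocyte and endothelial markers had ratios below 1 more often than above. All 5 astrocyte markers of the list had ratios below 1, and the interval lay below 1 for 4, beside 17.9% of all genes. *Slc1a2*, the glutamate transporter GLT1, had 44163 counts in the mutant library and 54180 in the control library (ratio 0.839, interval 0.828 to 0.849). *Glul*, the astrocyte gene given above with GABA precursor supply, went the other way (ratio 1.19, interval 1.17 to 1.21). Of 8 endothelial markers, 5 had ratios below 1 and 3 above 1. The interval lay below 1 for 3 and above 1 for 1, beside 17.9% and 19.7% of all genes. The tight junction gene *Cldn5* had 482 counts in the mutant library and 701 in the control library (ratio 0.708, interval 0.629 to 0.796). *Vwf* had a ratio of 1.25 (interval 1.11 to 1.415). For the other 4 the interval included 1, among them *Pecam1* (ratio 0.994) and *Cdh5* (1.01).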
